A study of Homo sapiens with 20 samples.

Results

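The 6 genes described here encode enzymes that break down the second messenger cAMP: the 4 members of the PDE4 subfamily, PDE4A, PDE4B, PDE4C and PDE4D, and their cAMP-specific relatives PDE7A and PDE8A. They were chosen from the data. Among genes whose 1.5 h and untreated libraries did not overlap, PDE4B had the largest fall after irradiation. The relatives were taken along to compare them across all groups. The members are 6 of the 20314 genes in the deposited counts table. A symbol identified 5 of them, and PDE4C (ENSG00000105650), whose row carried no symbol, was found by its identifier. All 6 passed the filter on low counts and were among the 14992 genes tested.

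RNA was sequenced from U2-OS cells, an established human osteosarcoma line, in 20 libraries that form 4 groups of 5. One group was left untreated, a pair of groups was harvested 1.5 h (90 minutes in the labels) or 7 days after ionizing irradiation (IR) at a dose of 20 Gy, and the last received no irradiation but an shRNA that targets NFKBIA, the gene of the NF-κB inhibitor IκBα. The study used the early and the late time point for acute DNA damage signaling and for senescence, and the knockdown for NF-κB activation without damage. The methods describe lentiviral shRNA constructs, puromycin selection and doxycycline induction with scrambled shRNA controls, whereas the labels of the untreated libraries name no vector, scrambled shRNA or doxycycline. Effects of NFKBIA loss and of the vector, selection or inducer therefore cannot be told apart in this comparison. The study describes the 5 libraries of each untreated or irradiated group as biological replicates, which the labels do not state, and p values measure the spread between these libraries.

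Cells make cAMP with adenylyl cyclases, which receptors coupled to the Gs protein switch on, and cAMP then acts through protein kinase A (PKA), EPAC exchange factors and Popeye domain proteins. Phosphodiesterases end the signal by hydrolysing cAMP. The PDE4 enzymes have many promoters that give long and short isoforms and are held at defined places in the cell by anchoring proteins and β-arrestins. They are known as targets of anti-inflammatory drugs, and transcription of PDE4 isoforms can itself be raised by cAMP through the factor CREB.

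Libraries held between 22535659 and 40390961 counted reads. NFKBIA itself, the target of the shRNA, fell from 31.3 ± 7.25 to 12.1 ± 0.667 CPM (reads scaled to library size, SD, n = 5 each) in the knockdown, with a log2 fold change of -1.36 (SE 0.11, edgeR adjusted p = 4.87e-09). Untreated replicate 5 stood apart, with a root mean square log2 distance of 0.561 to its group against at most 0.386 for any other library. It was the shallowest library and the only untreated one in lane 3, which it shared with 3 libraries of the 1.5 h group. The other 4 untreated libraries were alone in lane 2, and no lane held both untreated cells and cells at 7 days or with the knockdown. Of the osteoblast lineage markers, RUNX2, ALPL and COL1A1 were above 5 CPM in each library, whereas SP7, IBSP, COL1A2 and BGLAP stayed under 2 CPM. The leukocyte markers PTPRC, CD3E and CD14 and the endothelial CDH5 were under 2 CPM in each library, while the epithelial KRT8 reached 189 to 444 CPM, with EPCAM and CDH1 under 5 CPM.

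PDE4B (ENSG00000184588, chromosome 1) was the member with the largest change 1.5 h post-IR. In untreated replicates 1 to 5 its level was 15.6, 13.1, 13.5, 11.7 and 14.3 CPM. At 1.5 h the levels were 5.23, 5.56, 5.03, 5.27 and 6.17 CPM. Each of these libraries lay below each untreated library, which was a condition of the ranking that chose the gene and is no result about it. The groups did not overlap for 12.3% of all genes. The means were 13.6 ± 1.44 and 5.46 ± 0.444 CPM (SD, n = 5 each), 2.49-fold lower post-IR, with a log2 fold change of -1.32. This is the value that chose the gene, and no test is attached to it. In bulk RNA, fewer cells with the transcript and less transcript per cell cannot be told apart. In the ranking of genes without overlap, the next largest fall was that of C17orf97, with a log2 fold change of -1.25. Of all genes tested, 3.66% were called different at 1.5 h (2.08% higher, 1.57% lower). A call required an adjusted p under 0.05 together with a log2 fold change beyond 0.5 in either direction.

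The libraries of the other members overlapped between the groups at 1.5 h. PDE4A had a log2 fold change of -0.32, PDE7A of -0.09 and PDE8A of -0.08, while PDE4C and PDE4D had 0.37 and 0.22. Without untreated replicate 5, the PDE4A value was -0.13 and that of PDE8A was 0.04. Within lane 3, against that library alone, the differences were -1.01 for PDE4A, 0.77 for PDE4C and -0.51 for PDE8A. Those of PDE4D (-0.30) and PDE7A (0.15) there had turned sign. The PDE4D log2 fold change was 0.04 without untreated replicate 1. The values of these members thus depend on which untreated libraries are used. For PDE4B the log2 fold change was -1.31 without untreated replicate 5. It was -1.43 within lane 3, from 3 irradiated libraries and that 1 untreated library. These PDE4B values come from the libraries that chose the gene and are no independent check.

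At 7 days PDE4B was back at 12.8, 12.6, 11.3, 12.8 and 13.8 CPM. These values lay within the range of the untreated libraries except replicate 3, which was below them. The mean was 12.7 ± 0.901 CPM (SD, n = 5), and the log2 fold change against untreated cells was -0.11 with a 95% interval from -0.29 to 0.08 (edgeR adjusted p = 0.309). The untreated libraries are also part of the contrast that chose PDE4B. Against 1.5 h the log2 fold change was 1.21, given as a description, since the 1.5 h libraries chose the gene.

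**Figure D1:**
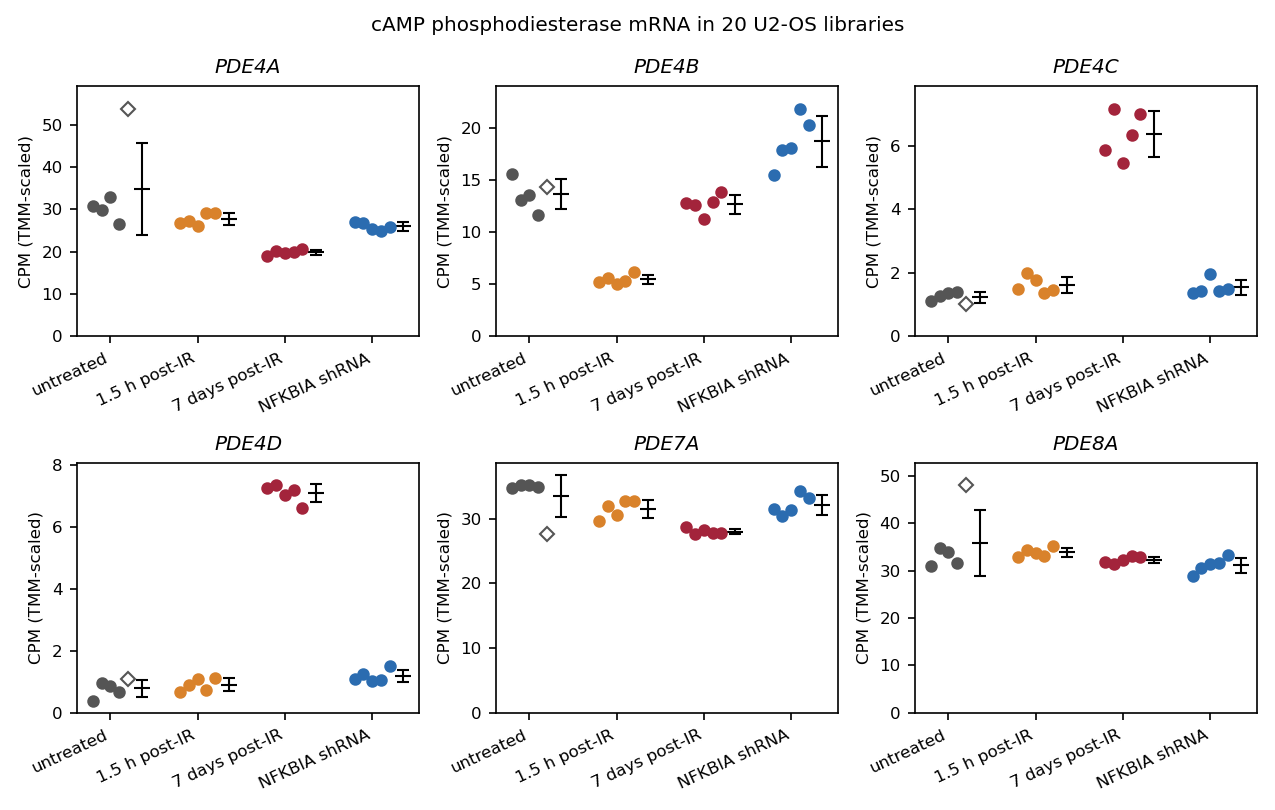
Levels of the 6 phosphodiesterase genes in CPM (vertical axis, linear, from 0) in each library of the 4 groups; bars show mean ± SD of 5 libraries, and the open diamond is untreated replicate 5. PDE4B is low in the 5 libraries at 1.5 h (5.03 to 6.17 CPM), PDE4C and PDE4D are high in the 5 libraries at 7 days, and the diamond lies apart for PDE4A, PDE7A and PDE8A.

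PDE4D (ENSG00000113448, chromosome 5) and PDE4C (chromosome 19), both at low levels in untreated cells, were the members that rose at 7 days. PDE4D, the isoform family studied as a partner of ryanodine receptors, had 0.386, 0.969, 0.851, 0.659 and 1.09 CPM in untreated replicates 1 to 5, from 13 to 35 reads. At 7 days it had 7.25, 7.36, 7.04, 7.21 and 6.62 CPM, from 185 to 248 reads. The libraries at 7 days lay far above the untreated ones and close to each other. Means were 0.792 ± 0.278 and 7.10 ± 0.289 CPM (SD, n = 5 each), a 9.08-fold rise with a log2 fold change of 3.18 (SE 0.17, edgeR adjusted p = 6.8e-13).

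PDE4C had 1.10, 1.27, 1.38, 1.38 and 0.999 CPM in untreated replicates 1 to 5, from 21 to 55 reads. At 7 days the values were 5.85, 7.16, 5.45, 6.33 and 6.98 CPM, from 189 to 218 reads. Again no library of one group reached the range of the other. Means of 1.23 ± 0.171 and 6.35 ± 0.728 CPM (SD, n = 5 each) gave a 5.10-fold rise, with a log2 fold change of 2.35 (SE 0.13, edgeR adjusted p = 1.15e-12). By GENCODE 29, PDE4C shares 4625 exonic bases with the protein-coding gene AC008397.2 on the same strand and 535 with the antisense gene AC005759.1, so that its reads could in part come from these genes. PDE4D shares 227 exonic bases with PART1 on the other strand, and the strand setting of the counting is not given in the sources used here.

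The rise of both genes was late. At 1.5 h PDE4D had 0.908 ± 0.204 CPM and PDE4C 1.61 ± 0.264 CPM (SD, n = 5 each). From 1.5 h to 7 days PDE4D rose with a log2 fold change of 2.96 (SE 0.16, edgeR adjusted p = 1.26e-12) and PDE4C with 1.98 (SE 0.12, adjusted p = 9.34e-12). They were the 2 members called among the 5 tested in this comparison, in which 29.3% of all genes were called. In lane 4, from 2 libraries at each time point, the differences were 2.92 for PDE4D and 2.17 for PDE4C on the log2 scale.

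PDE4A (ENSG00000065989, chromosome 19) went the opposite way at 7 days. Its untreated levels were 30.9, 29.7, 32.9, 26.5 and 53.7 CPM in replicates 1 to 5, the last from the library that stood apart. At 7 days they were 18.8, 20.0, 19.7, 19.9 and 20.6 CPM. Each was below the lowest untreated library. The log2 fold change was -0.80 (SE 0.12, edgeR adjusted p = 9.53e-06), and without untreated replicate 5 it was -0.62 (adjusted p = 1.3e-09). PDE4A also fell from 1.5 h, by 0.48 on the log2 scale (SE 0.12, adjusted p = 0.0021), and the libraries did not overlap, as for 61.8% of all genes. This lay just under the fold threshold and passed it in some alternatives, with -0.58 with lane as a factor (adjusted p = 9.51e-06) and -0.52 without 1.5 h replicate 3 (0.00247). In lane 4, with 2 libraries at each time point, the difference was -0.58.

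PDE7A and PDE8A stayed under the fold threshold at 7 days, except for PDE8A with lane as a factor. PDE7A, from a separate family of enzymes with high affinity for cAMP, ranged from 27.7 to 35.1 CPM over the untreated libraries and from 27.6 to 28.6 CPM at 7 days. The 27.7 CPM came from untreated replicate 5, and without that library the untreated range was 34.7 to 35.1 CPM. The PDE7A log2 fold change of -0.26 passed the test but not the fold threshold (SE 0.06, edgeR adjusted p = 0.000525). Leaving out 1 replicate gave -0.34 to -0.24. Over all alternatives run it reached -0.07, and the highest adjusted p among them was 0.576. PDE8A, whose protein is known for its insensitivity to the general inhibitor IBMX, ranged from 30.9 to 48.0 CPM in untreated cells and from 31.3 to 33.0 CPM at 7 days. The 48.0 CPM was also from untreated replicate 5, and the other untreated libraries reached up to 34.8 CPM. The PDE8A log2 fold change of -0.15 had a 95% interval from -0.32 to 0.02 (edgeR adjusted p = 0.124). Leaving out 1 replicate gave -0.22 to -0.05, and with lane as a factor PDE8A was called lower (-0.62). PDE7A shares 116 exonic bases with MTFR1 on the other strand.

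Thus 3 of 6 members were called at 7 days against untreated cells, 2 higher and 1 lower, where 31.1% of all genes were called (16.7% higher, 14.4% lower). The libraries of both groups did not overlap for the same 3 members, as for 44.8% of all genes. The median log2 fold change over the 6 members was -0.13, beside 0.01 over all genes tested.

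**Figure D2:**
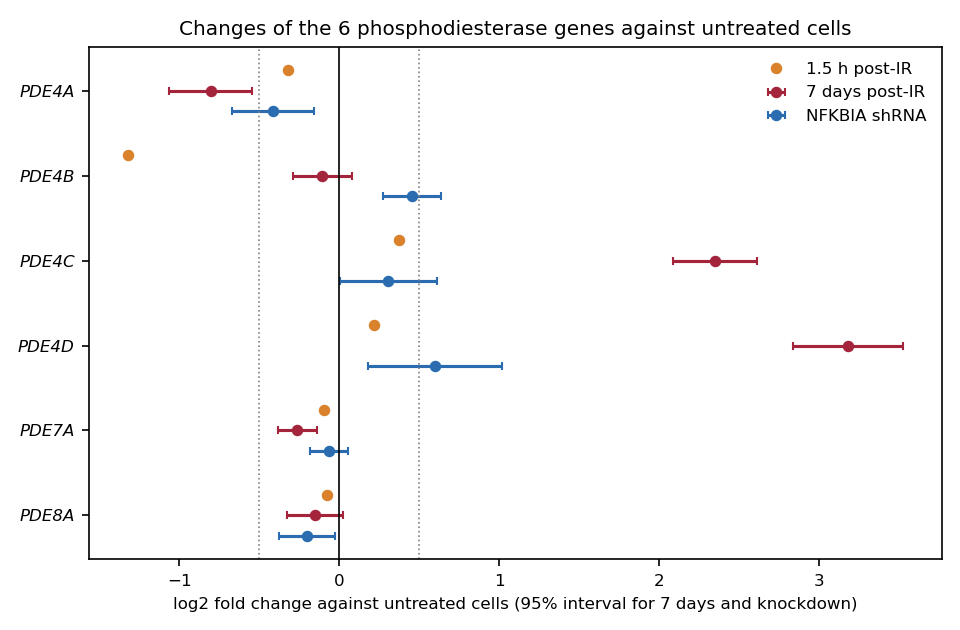
Log2 fold changes of the 6 genes against untreated cells (points) for the 3 other groups, with 95% intervals (bars) at 7 days and in the knockdown but none at 1.5 h, the contrast that chose the genes; dotted lines mark the fold threshold of 0.5 in either direction. PDE4D (3.18) and PDE4C (2.35) lie furthest right, at 7 days, and the PDE4B point at 1.5 h (-1.32) furthest left.

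Promoter sequences are shown for the 2 genes that rose together and for PDE4A, which fell, to give the places where letters known from CREB binding occur. Windows of 300 bases, 250 before and 50 after a RefSeq start (GRCh38.p14), were searched on both strands. They were those of PDE4A (5 windows), PDE4B (6), PDE4C (4), PDE4D (8) and PDE8A (3), and PDE7A was not searched. The search was for the full cAMP response element TGACGTCA, its core TGACG, which also lies within the full element, and a consensus κB site of NF-κB. The core was in 1 window each of PDE4A, PDE4C and PDE4D, and in 24.6% of the 35116 windows of all genes. The full element was in the same PDE4A window and in 1.85% of all windows, and the κB site was in no window of these genes and in 0.191% of all. The 250 bases before the start in these 3 windows follow, with the cores of either strand in capitals. The first is at chr5:59587626-59587875 (minus strand), the second at chr19:18224494-18224743 (minus strand) and the third at chr19:10416523-10416772 (plus strand).
PDE4D: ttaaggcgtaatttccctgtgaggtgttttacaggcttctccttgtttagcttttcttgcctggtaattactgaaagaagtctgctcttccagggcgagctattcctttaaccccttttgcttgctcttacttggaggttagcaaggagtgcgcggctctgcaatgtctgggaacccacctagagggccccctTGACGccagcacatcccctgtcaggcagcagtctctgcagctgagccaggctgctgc
PDE4C: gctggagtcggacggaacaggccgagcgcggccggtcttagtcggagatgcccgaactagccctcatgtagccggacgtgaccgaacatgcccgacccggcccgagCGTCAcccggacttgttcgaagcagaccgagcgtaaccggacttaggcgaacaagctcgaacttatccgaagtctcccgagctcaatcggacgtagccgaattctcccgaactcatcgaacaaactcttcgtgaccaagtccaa
PDE4A: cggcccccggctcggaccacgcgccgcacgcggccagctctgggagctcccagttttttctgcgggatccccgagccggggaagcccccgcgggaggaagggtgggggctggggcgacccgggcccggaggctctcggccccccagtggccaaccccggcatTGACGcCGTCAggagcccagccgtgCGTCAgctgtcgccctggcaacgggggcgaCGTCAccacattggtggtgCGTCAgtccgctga
The PDE4D and PDE4C stretches lie inside their genes, within no exon that GENCODE 29 annotates, and their single cores begin 57 and 144 bases before the start. The PDE4A stretch lies just before the gene and holds 5 cores. With those at the start itself the window of 300 bases holds 7, and 4 of the 35116 windows, this one included, hold 7 or more. The counts are summed over each gene and do not show which start was used, and these letters do not show binding.

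With NFKBIA knockdown 1 of the 6 members was called, PDE4D, where 12.7% of all genes were called (5.18% higher, 7.53% lower). PDE4B had 15.5, 17.9, 18.1, 21.8 and 20.2 CPM, against 11.7 to 15.6 CPM in untreated cells. Only replicate 1 of the knockdown lay within the untreated range. The mean was 18.7 ± 2.42 CPM (SD, n = 5), with a log2 fold change of 0.46 (SE 0.09, edgeR adjusted p = 0.000311). It passed the test but lay under the fold threshold, and here too the untreated libraries are part of the contrast that chose PDE4B. It reached 0.52 without knockdown replicate 1 and 0.51 without untreated replicate 1, and was 0.01 (adjusted p = 0.984) with lane as a factor, a fit that ties untreated cells to the other groups through untreated replicate 5.

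PDE4D had 1.09, 1.24, 1.02, 1.06 and 1.52 CPM in the knockdown. Its log2 fold change was 0.60 (SE 0.20, edgeR adjusted p = 0.0211), from 29 to 43 reads per library, and the groups overlapped. The call was lost without untreated replicate 1 (adjusted p = 0.0576), without untreated replicate 4 (0.051), without knockdown replicate 5 (0.0674) and in a fit of only these 2 groups (0.0823). With lane as a factor the log2 fold change was -0.014 (adjusted p = 0.989), so that its sign turned.

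PDE4A had a log2 fold change of -0.41 in the knockdown (SE 0.12, edgeR adjusted p = 0.0105), which was -0.23 without untreated replicate 5 (adjusted p = 0.00131) and -0.52, past the fold threshold, without untreated replicate 4 (0.00171). For PDE4C it was 0.31 (adjusted p = 0.0975), for PDE8A -0.20 (0.0619) and for PDE7A -0.06 (0.403). Leaving out 1 replicate gave -0.26 to -0.10 for PDE8A. With lane as a factor PDE8A was called lower (-0.80), and the PDE7A value turned to 0.10. The 95% interval of PDE7A, from -0.18 to 0.06, lies within the fold threshold, while that of PDE4C reaches 0.61.

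Senescent cells and knockdown cells were then compared directly. The ranking that chose PDE4B did not use these libraries, but the genes and tests were chosen with earlier results of these data known. Of all genes 25.7% were called (15.8% higher and 9.89% lower at 7 days), and of the 6 members 3 were called. PDE4B was lower at 7 days, with a log2 fold change of -0.56 (SE 0.09, edgeR adjusted p = 1.38e-05), and each library at 7 days lay below each knockdown library; the groups did not overlap for 60.7% of all genes. With lane as a factor this difference was -0.30 (adjusted p = 0.106). PDE4D and PDE4C were higher at 7 days, with log2 fold changes of 2.58 (SE 0.16, adjusted p = 9.29e-12) and 2.04 (SE 0.12, adjusted p = 9.14e-12). Within lane 5, from 3 libraries at 7 days and 1 with the knockdown, the differences were -0.30 for PDE4B, 2.61 for PDE4D and 2.15 for PDE4C. PDE4A (-0.39, adjusted p = 0.0114) and PDE7A (-0.20, adjusted p = 0.00619) passed the test but not the fold threshold.

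Between the knockdown and 1.5 h post-IR, 14.1% of all genes were called. PDE4B was 3.42-fold higher in the knockdown, a description since the 1.5 h libraries chose it. By edgeR, 0 of the other 5 members were called, and 0 of them had an unadjusted p under 0.05; by DESeq2 these counts were 0 and 1. PDE4D had the largest log2 fold change of these, 0.38 with a 95% interval from -0.02 to 0.78.

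The order of the groups thus differed between genes. For PDE4B it ran from 1.5 h over 7 days and untreated cells to the knockdown, and 7 days and untreated did not differ beyond their spread. For PDE4D and PDE4C the group at 7 days was highest, with the other 3 groups overlapping below it. For PDE4A the 7 days group was lowest.

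The ratio of PDE4D to PDE4B within each library is given as a description, without a test, because the pair was chosen with these values known. For each PDE4B read there were 0.0590 ± 0.0208 PDE4D reads in untreated cells, 0.166 ± 0.0353 at 1.5 h, 0.563 ± 0.0525 at 7 days and 0.0640 ± 0.0111 in the knockdown (SD, n = 5 each). On the log2 scale the ratio was higher at 7 days than in untreated cells by 3.24, close to the 3.18 of PDE4D alone, since PDE4B had -0.11 in that comparison. It was higher at 7 days than in the knockdown by 3.09, and the knockdown and untreated cells differed by 0.16.

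Levels of different genes were compared per kilobase of exon, the length being the one in the deposited table. For PDE4C this length is 8532 bases, against 6546 bases by GENCODE 29, which would give higher PDE4C levels per kilobase. PDE4A was the most abundant PDE4 gene in each group. Its share of the summed PDE4 level (CPM per kilobase) was 73.9% ± 4.37 in untreated cells, 82.6% ± 1.10 at 1.5 h, 52.9% ± 1.44 at 7 days and 61.8% ± 3.56 in the knockdown (SD, n = 5 each). The PDE4B share was 23.2% ± 3.95, 12.5% ± 0.605, 26.0% ± 1.17 and 34.2% ± 3.56 in the same order. PDE4C and PDE4D together were a small part of the PDE4 message except at 7 days. PDE4C then had 13.2% ± 1.03, up from 2.17% ± 0.653, and PDE4D 7.94% ± 0.527, up from 0.718% ± 0.224. The sum itself was 7.00 ± 1.70 CPM per kilobase in untreated cells, or 6.27 without untreated replicate 5, against 5.04 ± 0.234 at 1.5 h, 5.64 ± 0.231 at 7 days and 6.32 ± 0.184 in the knockdown. Shares and sums are descriptions of total mRNA, without regard to isoforms, whose lengths can differ between groups.

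**Figure D3:**
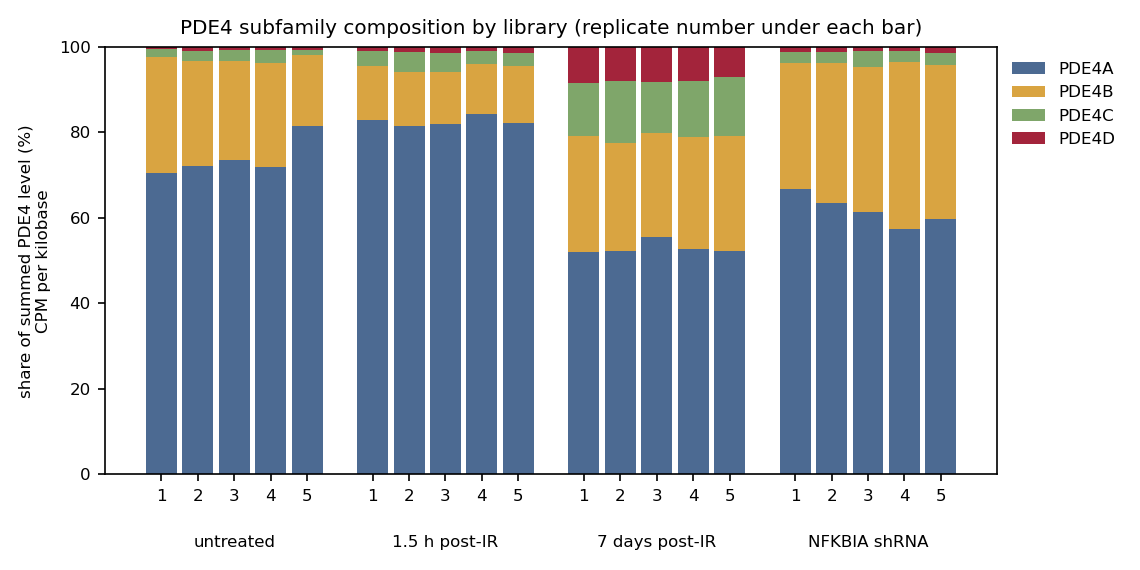
Share of each PDE4 gene in the summed PDE4 level (CPM per kilobase, %) in each of the 20 libraries, with replicate numbers under the bars. PDE4A takes most in each library, PDE4B narrows at 1.5 h (12.5% on average), and PDE4C and PDE4D widen at 7 days (13.2% and 7.94%).

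The members were then set beside other genes of cAMP signaling, in 11 lists with 110 genes, of which 94 were tested. At 7 days 21 of these were called higher and 20 lower, where 31.1% of all genes were called. Without untreated replicate 5 these were 22 and 19. In the knockdown 5 were called higher and 9 lower, where 12.7% of all genes were called, and at 1.5 h, where 3.66% of all genes were called, 7 higher and 1 lower, or 10 genes, all of them higher, without that library.

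Of 9 other cAMP phosphodiesterases tested, 2 were called higher and 3 lower at 7 days. The calcium-stimulated PDE1C rose from 16.8 ± 3.02 to 29.1 ± 1.26 CPM (log2 fold change 0.80) and the cGMP-stimulated PDE2A from 18.4 ± 2.14 to 28.5 ± 1.75 CPM (0.63, SD, n = 5 each); PDE2A lies outside the naming rule and was named after its value was seen. PDE3B, which insulin signaling activates, fell by 0.92 on the log2 scale, the calcium-stimulated PDE1B by 0.81 and PDE8B, the paralog of PDE8A, by 0.79. In the knockdown PDE1C fell by 0.86, the 1 gene of this list that was called there, so that its changes at 7 days and in the knockdown had opposite signs. Of 5 phosphodiesterases for cGMP, PDE9A fell by 0.74 at 7 days and rose by 0.60 in the knockdown. PDE6C, known from cone photoreceptors, had 0 reads in the untreated libraries and 0.723 ± 0.166 CPM at 7 days, at least 7.40-fold higher than the level that 3 reads per library would give.

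Upstream of cAMP, 3 of 9 adenylyl cyclases were called higher at 7 days and 1 lower. ADCY8 rose from 0.568 ± 0.106 to 2.71 ± 0.214 CPM (log2 fold change 2.21), the soluble cyclase ADCY10 by 2.09 on the log2 scale at under 1 CPM, and ADCY1 by 0.67, while ADCY3 fell by 0.51. Of 10 receptors coupled to Gs, 3 were called higher and 3 lower. ADCYAP1R1, a receptor of the neuropeptide PACAP, rose by 1.34. The prostaglandin receptor PTGER2 fell by 1.32 and the melanocortin receptor MC1R by 1.03. In the knockdown the prostacyclin receptor PTGIR (1.12) and the adenosine receptor ADORA2B (0.89) rose and PTGER2 fell by 0.65, ADCY2 fell by 1.09 and ADCY10 rose (1.29). Of 6 α subunits of Gs and Gi proteins, GNAZ and GNAL were called lower at 7 days, by 1.07 and 0.57, and GNAZ also in the knockdown, by 0.83.

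Downstream, 2 of 9 genes of PKA and its inhibitors were called higher and 3 lower at 7 days. The inhibitor gene PKIA rose from 12.3 ± 0.745 to 27.6 ± 1.37 CPM (log2 fold change 1.17) and the regulatory subunit PRKAR1B by 0.97, while the inhibitor gene PKIB fell from 60.7 ± 17.4 to 21.7 ± 1.62 CPM (-1.48). PKIA changed the other way in the knockdown, where it fell by 0.73. The catalytic subunit PRKACA fell by 0.57 at 7 days and by 0.77 in the knockdown, but only with untreated replicate 5 in the fit: without it the values were -0.23 and -0.43, under the fold threshold. RAPGEF3, which encodes EPAC1, was called higher at 7 days (1.31) and in the knockdown (1.16), and POPDC2, a Popeye domain gene, at 7 days (0.68).

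Among proteins that hold or bind PDE4 enzymes, PDE4DIP (myomegalin, an anchor of PDE4D) rose at 7 days from 73.7 ± 8.12 to 262.8 ± 5.96 CPM, a log2 fold change of 1.83 (SE 0.06), in the same group in which PDE4D rose. The β-arrestin genes ARRB2 and ARRB1, whose products bring PDE4 to receptors, fell by 0.99 and 0.66. These were the 3 of 9 partner genes called at 7 days. In the knockdown ARRB2 fell by 0.73, and by 0.48 without untreated replicate 5, which is under the threshold. Of 13 A-kinase anchoring genes, AKAP2 (0.94) and AKAP6 (0.76) were called higher and AKAP5 (-0.76) and AKAP7 (-0.53) lower at 7 days.

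Of 8 genes for CREB factors and coactivators, CREM rose at 7 days from 16.4 ± 1.76 to 36.3 ± 2.61 CPM (log2 fold change 1.15). CREBBP (-0.76) and CRTC1 (-0.57) were called lower, and CRTC2 (-0.71) at 1.5 h. These 3 calls were lost without untreated replicate 5. Of 13 CREB target genes tested, 6 were called at 1.5 h, all of them higher, and 9 without that library, where 3.66% of all genes were called (2.08% higher). FOSB had a log2 fold change of 1.97, JUNB of 1.14, SIK1 of 0.89 and NR4A1 of 0.82. Such immediate-early genes also respond to signals other than cAMP. At 7 days FOSB (2.09), the neurotrophin gene BDNF (1.22) and DUSP1 (0.85) were higher and NR4A1 lower (-0.86), and 5 of the 13 were called. NR4A1 (-0.74) and NR4A3 (-0.86) were called lower in the knockdown, the second only with untreated replicate 5 in the fit.

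**Figure D4:**
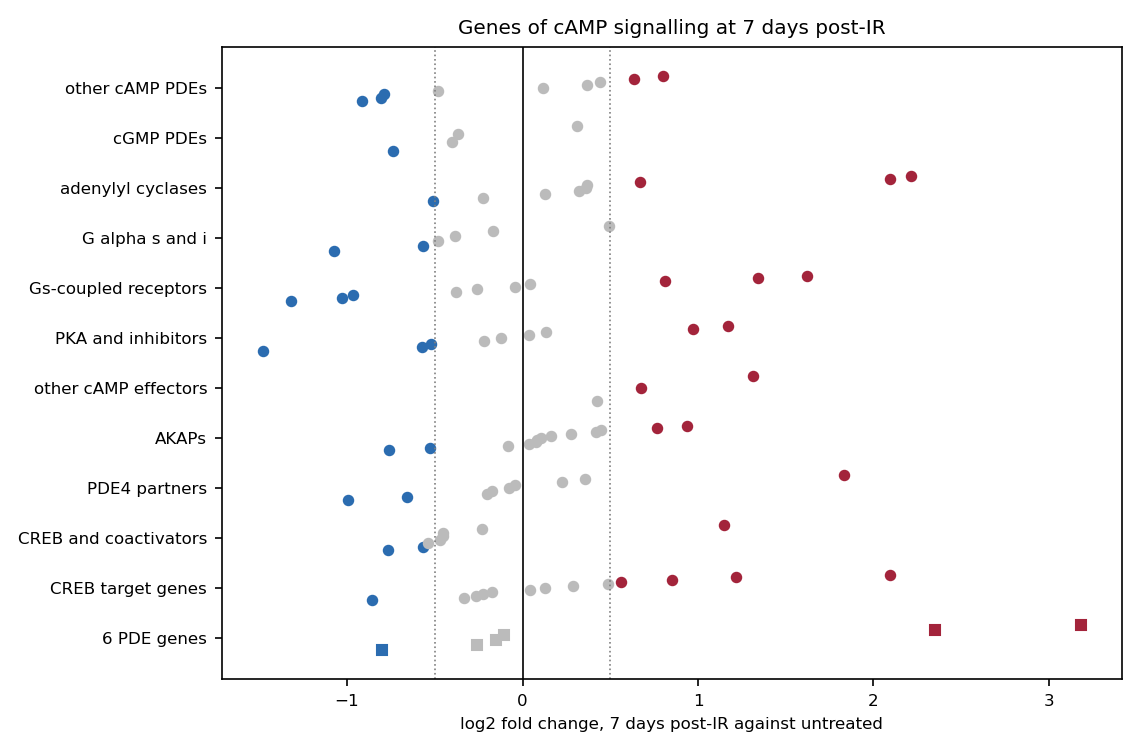
Log2 fold changes at 7 days against untreated cells of genes of cAMP signaling, by list (circles) and of the 6 phosphodiesterase genes (squares); red marks genes called higher, blue genes called lower and grey genes not called, dotted lines the fold threshold. PDE6C, with 0 reads in the untreated libraries, is left out. PDE4D (3.18) and PDE4C (2.35) lie further right than any other gene plotted, and each list holds called genes.

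Genes whose pattern over the 20 libraries was most like that of PDE4B were DOLK (Pearson r = 0.935 of log2 CPM), XYLT2 (0.932), ZC3H10 (0.902), TBL2 (0.895) and ZNF546 (0.894). XYLT2, for example, had mean levels of 56.9 CPM in untreated cells, 45.3 CPM at 1.5 h, 54.2 CPM at 7 days and 62.9 CPM in the knockdown, a narrower range than PDE4B. Only 3 genes had r above 0.9 with PDE4B. For PDE4D the most alike were ABCA12 (0.980), PLXNB3 (0.977), MUC19 (0.977), SLAMF7 (0.976) and CYFIP2 (0.975), and 589 genes had r above 0.9. MUC19 rose from 2.03 CPM in untreated cells to 27.9 CPM at 7 days and SLAMF7 from 20.2 to 88.9 CPM. The libraries fall into groups, so these r values describe likeness over the 4 groups.

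The members differ widely in the length of genome they cover. By GENCODE 29 (GRCh38), PDE4D spans 1553 kb and PDE4B 582 kb, against 52.9 kb for PDE4A, 39.5 kb for PDE4C, 125 kb for PDE7A and 159 kb for PDE8A. PDE4B and PDE4D thus belong to the 708 genes over 300 kb among the 14748 tested genes with a span. At 1.5 h the median log2 fold change of these long genes was -0.02, and 0.706% of them were called lower, beside 2.90% of genes under 20 kb. At 7 days their median was 0.12, and 30.5% were called higher, beside 14.8% of genes under 20 kb. PDE4C, which also rose, belongs to the genes of 20 to 100 kb, of which 16.0% were called higher at 7 days.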

How the data were processed

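RNA-seq of U2-OS cells was analysed from the table of raw read counts that the authors deposited (20314 genes, 20 libraries, 4 groups of 5 by the labels). The submitters' processing notes name bcl2fastq, Trimmomatic, STAR 2.4.2a and hg19. The counting tool, annotation and strand setting are not given in the sources used here, so reads of overlapping genes may be shared. According to the methods, libraries were made from total RNA with a stranded mRNA kit and read as single reads.

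Differential expression was computed with edgeR 4.0.16 in R 4.3.3, with filterByExpr at a minimum count of 10, TMM scaling and 1 quasi-likelihood model with a term per group over all libraries, with Benjamini-Hochberg adjustment over 14992 genes. A call needed an adjusted p under 0.05 and a log2 fold change beyond 0.5 in either direction, the fold threshold of the study. The SE was taken from the log2 fold change and its F statistic. CPM used TMM-scaled library sizes, log2 CPM a prior count of 2. The scripts were tested on simulated data. No 2 replicates of a group agreed within sampling noise, the lowest chi-square per degree of freedom of 40 pairs being 1.75.

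The 6 genes, the lists and the tests were chosen with earlier results of these data known. Named genes were the 6 members, NFKBIA, up to 4 called genes of largest change per list and comparison, and for PDE4B and PDE4D the 5 genes most alike by Pearson r. Spans and overlaps came from GENCODE 29 (GRCh38) by gene identifier, and no coordinate was converted. Symbols missing from the table were added by identifier for 880 of 1679 genes. Alternatives were other scalings (upper quartile and DESeq2's size factors), DESeq2 1.42.0 as a whole, other filters, lane, a replicate block, fits of 2 groups and leaving out each replicate. Some genes are not reported here.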

Additional observations from a re-analysis of the deposited data

Results flagged for a closer look

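In 4 of the 24 groups of 5 libraries (6 genes in 4 groups), 1 library lay further from the rest than Dixon's 95% critical value of 0.71 allows, where chance alone flags about 1 in 20. In 3 of them it was untreated replicate 5: its PDE4A level of 53.7 CPM and its PDE8A level of 48.0 CPM were the highest of the untreated group, and its PDE7A level of 27.7 CPM was the lowest. The fourth was knockdown replicate 3, with the highest PDE4C level of that group, 1.97 CPM from 66 reads.

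Effects against untreated cells differed between groups for 3 genes, tested directly in the edgeR fit, in which the untreated libraries cancel. Between 7 days and the knockdown the difference was -0.56 for PDE4B (adjusted p = 1.38e-05), 2.04 for PDE4C (9.14e-12) and 2.58 for PDE4D (9.29e-12) on the log2 scale. Between 7 days and 1.5 h it was 1.98 for PDE4C (9.34e-12) and 2.96 for PDE4D (1.26e-12).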

How the results depend on the processing

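At 7 days against untreated cells, PDE4C (log2 fold change 2.28 to 3.02), PDE4D (2.66 to 3.28) and PDE4A (-1.59 to -0.62) kept direction and call under all alternatives run, as did PDE4C and PDE4D against 1.5 h and against the knockdown. With adjusted p alone, 3191, 9620 and 6078 genes were called at 1.5 h, 7 days and in the knockdown against untreated cells, 9131 and 8609 at 7 days against 1.5 h and the knockdown, and 6245 between the knockdown and 1.5 h. Lane as a factor gave 3820 calls at 1.5 h, 4088 in the knockdown and 1186 between these groups. In that fit the log2 fold change at 1.5 h was -1.01 for PDE4A, 0.80 for PDE4C, -0.51 for PDE8A, -0.30 for PDE4D and 0.15 for PDE7A, and in the knockdown -0.014 for PDE4D and 0.10 for PDE7A. Between the knockdown and 1.5 h it was 0.014 for PDE4C and -0.046 for PDE7A. Leaving out 1 replicate gave -0.18 to 0.014 for PDE4C there, above 0 only without 1.5 h replicate 2, and -0.00125 to 0.044 for PDE7A, below 0 without 1.5 h replicate 1 (-0.000715) or knockdown replicate 4. PDE8A was called lower with lane as a factor at 7 days (-0.62) and in the knockdown (-0.80), and PDE4A in the knockdown (-1.17). The lane fit rests on untreated replicate 5, and the cause was not tested. Leaving out 1 replicate gave 460 to 689 calls at 1.5 h, 4608 to 4888 at 7 days and 1798 to 2146 in the knockdown. The log2 ratio of PDE4D to PDE4B in the knockdown against untreated cells ranged from -0.11, without untreated replicate 1, to 0.27. Per read rather than per kilobase, the shares of PDE4A, PDE4B and PDE4D were 68.1%, 27.7% and 1.58% in untreated cells and 43.2%, 27.5% and 15.5% at 7 days.

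Replicate numbers did not pair the libraries: deviations of same-numbered libraries correlated above 0.1 in 2 of 30 pairs (-0.25 to 0.12). With the replicate block 496, 4628 and 1849 genes were called at 1.5 h, 7 days and in the knockdown, and no call of a member changed. Depth limits PDE4D and PDE4C outside the 7 days group, where they had 13 to 69 reads per library: the 95% interval of the PDE4D change in the knockdown ran from 0.18 to 1.02 on the log2 scale.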
